A study of Mus musculus with 947 samples.

Results

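mmu-miR-203-3p and mmu-miR-205-5p (below miR-203-3p and miR-205-5p) are a pair of microRNAs known from stratified epithelium, and they were followed here by name, as 2 of the 1076 mouse miRNAs measured in the aging cohort and of the 795 measured for the parabiosis cohort. The aging cohort consisted of 768 small RNA libraries from 16 tissues of untreated C57BL/6JN mice, males in 10 age groups from 1 to 27 months and virgin females from 1 to 21 months. The mice were perfused, and the labels tie no 2 tissues to the same mouse, so that p-values in this cohort measure the spread between libraries. The parabiosis cohort consisted of 176 libraries from 6 tissues of 30 male mice that had been surgically joined in pairs for 5 weeks. In the heterochronic pairs an old mouse (HA, 19 months) was joined to a young mouse (HY, 4 months), and in the isochronic pairs both partners were young (IY, 3 or 4.5 months) or both were old (IA, 19 months). IY and old mice were C57BL/6J or C57BL/6JN, on which the sources of the study differ, while all HY mice were of another strain, so that strain and group cannot be told apart for HY. Both partners of an isochronic pair belong to the same group, and the fits below treat partners as separate samples unless a pairing is named. Skin, taken from the shaved back, was collected in the aging cohort only. It was represented by 46 libraries, 13 from females and 33 from males.

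A miRNA guides Argonaute proteins to messenger RNAs that pair with its seed, bases 2 to 8 counted from its 5′ end, and lowers the output of those messages. miR-203 is known from the layers above the basal layer of the epidermis, where it represses the transcription factor p63 and limits the division of keratinocytes as they differentiate. miR-205 is known from basal cells of stratified and glandular epithelia, where it targets Zeb1 and Zeb2, repressors of E-cadherin, and the lipid phosphatase Inppl1 (SHIP2). The miR-200 family also targets Zeb1 and Zeb2 and marks epithelium in general, which is why its members served as markers.

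The mature sequences are shown with the seed in capitals, because the seed decides which messages can be paired and because both arms of each hairpin are reported on. They were taken from RefSeq on GRCm38.p6. miR-203-3p lies at chr12:112130927-112130948 on the plus strand and miR-205-5p at chr1:193507503-193507524 on the minus strand.
miR-203-3p: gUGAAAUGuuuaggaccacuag
miR-203-5p: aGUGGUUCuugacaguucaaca
miR-203b-3p: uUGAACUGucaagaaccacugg
miR-205-5p: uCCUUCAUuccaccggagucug
miR-205-3p: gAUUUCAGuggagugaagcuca
The seeds of miR-203-3p and miR-205-5p differ from each other, and no other of the 1679 mature entries of the sequence table shared either of them. Both mature miRNAs are 22 bases long. The Mir203 hairpin (chr12:112130880-112130955) lay in no protein-coding gene, the nearest being Aspg at 3321 bases, and miR-203b-3p comes from a hairpin on its opposite strand. The Mir205 hairpin (chr1:193507463-193507530) lay within an exon of the long noncoding RNA 4631405K08Rik, and the nearest protein-coding gene, Camk1g, was 137165 bases away.

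Values are reads per 1 M mapped reads (rpmm, with M for 1000000). The median library held 20.1 M mapped reads in each cohort, with a range of 2.29 to 167 M in the aging cohort and 9.20 to 47.6 M in the parabiosis cohort. One male skin library of 21 months was kept apart from all comparisons because its profile was closest to liver (correlation of log values 0.993, against 0.844 with skin). It held 310 rpmm of miR-203-3p and 1.97 rpmm of miR-205-5p. Of the other 767 libraries, 11 were closest to the profile of another tissue than their own, none of them from skin.

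Skin stood apart from every other tissue for both miRNAs. In the 46 skin libraries miR-203-3p ranged from 1658 to 22058.5 rpmm with a median of 5691, and miR-205-5p ranged from 5794 to 38412 rpmm with a median of 17819. These medians made miR-205-5p the 3rd and miR-203-3p the 14th most abundant miRNA of skin. Among the 721 libraries of the other 15 tissues the highest value was 1246 rpmm for miR-203-3p and 3412 rpmm for miR-205-5p, so that no library of another tissue reached the lowest skin library for either. On the log2(rpmm + 1) scale skin exceeded the mean of the other tissues by 5.79 ± 0.12 (SE) for miR-203-3p (limma, adjusted p = 1.19e-229) and by 9.61 ± 0.21 for miR-205-5p (adjusted p = 8.8e-213). Of the 885 miRNAs tested, 21.1% were called higher in skin, and ordered by the size of the difference miR-205-5p was at position 1 and miR-203-3p at position 2. Both were called higher in skin against each of the 15 tissues taken singly. The smallest of these differences was 3.11 ± 0.16 for miR-203-3p, against small intestine, and 7.13 ± 0.30 for miR-205-5p, against subcutaneous adipose tissue (SCAT).

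**Figure D1:**
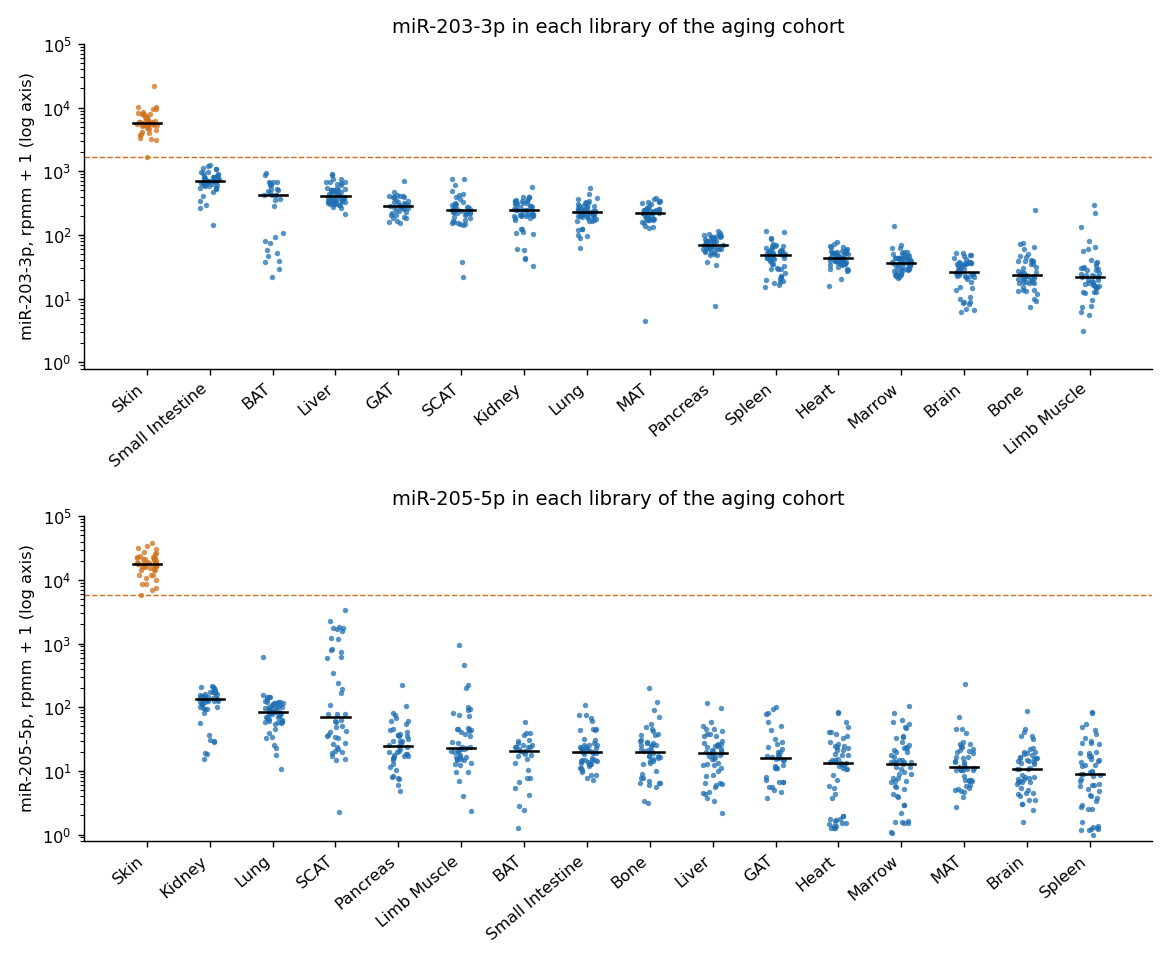
Level of miR-203-3p (top) and miR-205-5p (bottom) in each library of the aging cohort, as rpmm + 1 on a log axis, by tissue in the order of the medians (black lines). Skin is orange, and the dashed line marks the lowest skin library, which no library of another tissue reached.

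The skin profile was checked against marker miRNAs. All 10 miRNAs of the epithelium list (miR-200a, miR-200b, miR-200c, miR-141, miR-429, miR-183, miR-96, miR-182, miR-31 and miR-375) and all 3 of the fibroblast list (both arms of miR-199a, and miR-214) were higher in skin than the mean of the other tissues. Unlike the pair described here, none of the 10 epithelium miRNAs had its highest median in skin: miR-200c-3p had 1782 rpmm in skin and 7843 rpmm in small intestine. Of the striated muscle list, 4 of 7 were higher in skin, among them miR-206 with a median of 985 rpmm, second to limb muscle. The summed level of the muscle list ran from 922 to 79632 rpmm between skin libraries, while their miRNA part ran from 106461 to 482610 rpmm. The liver marker miR-122-5p was at 2.46 to 126 rpmm in skin, and the pancreas list had a summed median of 1.00 rpmm. In bulk tissue, fewer cells of a type and less RNA per cell cannot be told apart.

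Together the pair made up a large part of the skin miRNA reads. miR-203-3p took a median of 2.35% of them (1.30 to 4.57%) and miR-205-5p a median of 6.52% (4.70 to 13.8%). miR-205-5p exceeded miR-203-3p in all 46 skin libraries, by a ratio of 1.74 to 4.81 with a median of 2.82. Both are 22 bases long, but adapter ligation favors some ends over others, so this ratio compares reads and need not equal the ratio of molecules. The partner arms were less abundant in skin: miR-203-5p had a median of 284 rpmm, 4.81% of the opposite arm, and miR-205-3p a median of 23.1 rpmm, 0.126% of the opposite arm. In every tissue the share of the partner arm stayed low, between 2.56 and 5.79% for miR-203-5p and between 0.0489 and 0.185% for miR-205-3p. The antisense miR-203b-3p followed another order of tissues, with its highest median in brown adipose tissue (BAT, 14.8 rpmm) and kidney (4.91 rpmm) and only 0.226 rpmm in skin.

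Outside skin the levels of the pair followed different orders. The next tissue by median was small intestine for miR-203-3p, with 142 to 1246 rpmm and a median of 710, which was 8.01-fold below skin. For miR-205-5p it was kidney, with 14.4 to 215 rpmm and a median of 132, which was 135-fold below skin. Thus miR-203-3p was the less restricted of the pair. After small intestine the medians of miR-203-3p were 420 rpmm in BAT, 407 in liver, 288 in gonadal adipose tissue (GAT), 243 in SCAT, 242 in kidney, 225 in lung and 220 in mesenteric adipose tissue (MAT). A lower group followed, with 67.4 rpmm in pancreas, 47.01 in spleen, 42.7 in heart, 35.6 in marrow, 24.9 in brain, 22.1 in bone and 20.7 in limb muscle. Ordered by the mean of log values, neighbors differed beyond their spread (two-sided permutation test, adjusted over 30 pairs of neighbors) from skin to small intestine, liver and GAT, from MAT to pancreas and heart, and from marrow to bone. The other neighbors did not pass, among them the whole run of GAT, SCAT, BAT, lung, kidney and MAT. On the log2 scale BAT was the most spread tissue (SD of 1.70, against 1.24 in limb muscle, the next), with libraries from 21.3 to 935 rpmm.

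miR-205-5p was low in most other tissues. Lung had a median of 82.0 rpmm and SCAT of 69.6 rpmm, with SCAT running from 1.26 to 3412 rpmm. The remaining tissues had medians between 7.88 rpmm in spleen and 23.7 rpmm in pancreas. By the mean of log values SCAT came next to skin, then kidney. Only 3 pairs of neighbors passed, skin above SCAT (7.09 on the log2 scale), kidney above lung (0.47) and lung above limb muscle (1.37). Across the means of the 16 tissues the miRNA closest to each member was its own partner arm, with Pearson's r of 0.98 for miR-203-5p and 0.93 for miR-205-3p, and the members were themselves at r = 0.72. These values are descriptions over 16 means, which skin dominates.

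The low levels of miR-205-5p outside skin differed between pools with and without a skin library. The study barcoded samples at reverse transcription and sequenced them in pools, and the deposited annotation gives the pool of 755 of the 767 libraries. Of its 53 pools, 42 held at least 1 skin library and 11 held none. In heart, the 39 libraries from pools with skin held 2.82 to 83.8 rpmm with a median of 16.7, and the 12 from pools without skin held 0.278 to 0.976 rpmm with a median of 0.567. The 2 sets of hearts did not overlap. In BAT the 26 libraries with skin in the pool ran from 5.75 to 57.3 rpmm and the 4 without from 0.288 to 4.44 rpmm, again with no overlap. In spleen the medians were 12.0 rpmm in 40 libraries and 0.362 rpmm in 15 libraries, and in marrow 13.0 rpmm in 45 and 0.603 rpmm in 11.

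Over all 15 other tissues in 1 fit, miR-205-5p was higher in pools with a skin library by 1.71 ± 0.12 (SE) on the log2(rpmm + 1) scale (limma, adjusted p = 6.71e-39). The fit held tissue and age, but not the plate of a library. Only 3 of the 885 miRNAs were called in this comparison (0.339%), and miR-205-5p was the only one called higher. miR-203-3p differed by 0.07 ± 0.07 (adjusted p = 0.994). Libraries of 1 pool are not independent of each other, so the comparison was repeated over pools, each taken as the mean of its tissue-centered log2 values. The 42 pools with skin exceeded the 11 without by 1.71 for miR-205-5p (two-sided permutation p = 1e-05, the smallest that the shuffles can give), and by 0.07 for miR-203-3p (p = 0.507). Taken by tissue, miR-205-5p passed in 10 of 15 tissues and miR-203-3p in none (permutation test over libraries, adjusted over the 30 pairs of miRNA and tissue). The 5 tissues in which miR-205-5p did not pass were kidney, lung, limb muscle, MAT and SCAT. Kidney held a median of 138 rpmm with skin in the pool and 111 rpmm without (adjusted p = 0.697), and lung 90.3 and 62.6 rpmm (adjusted p = 0.391).

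**Figure D2:**
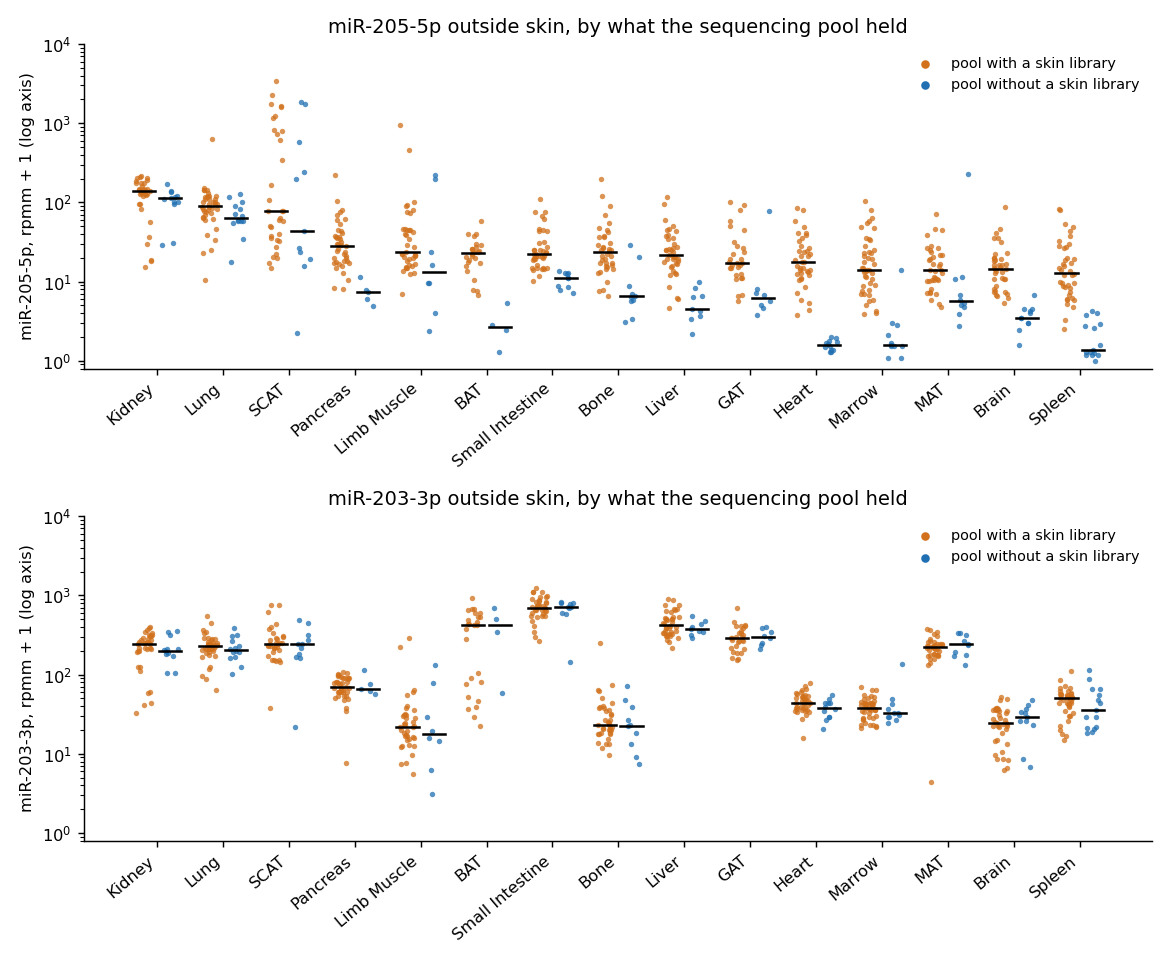
Level of miR-205-5p (top) and miR-203-3p (bottom) in the libraries of the 15 other tissues, as rpmm + 1 on a log axis, split by whether the pool of the library also held a skin library (orange) or not (blue); black lines are medians. For miR-205-5p the sets do not overlap in heart and BAT, while kidney, lung and SCAT overlap widely; for miR-203-3p they overlap in all tissues.

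No skin was collected in the parabiosis cohort. There miR-205-5p had a median of 0.587 rpmm in heart, 1.27 rpmm in liver and 2.44 rpmm in limb muscle. The aging cohort had 12.2, 18.0 and 21.6 rpmm. The other shared tissues differed less by median, with 5.78 and 10.3 rpmm in MAT in the parabiosis and the aging cohort. GAT had medians of 14.4 and 15.0 rpmm, and kidney of 135 and 132 rpmm. The range in GAT was wider in the parabiosis cohort, 4.72 to 2410 rpmm against 2.80 to 99.3 rpmm. The cohorts also differed in age, sex, strain, surgery and an added precipitation of the RNA in the aging cohort. Among the 42 pools with skin, the level in the low tissues rose loosely with the skin miR-205-5p level of the pool (Pearson's r of 0.33 and Spearman's rho of 0.39 over pools, as a description). What carried these reads was not tested. With the other tissues taken only from pools without skin, the lowest medians of miR-205-5p were those of spleen, heart and marrow, all under 1 rpmm, and kidney held the highest mean log value after skin. Of the 30 pairs of neighbors 3 then passed, against 9 with all pools. They were skin above small intestine and kidney above pancreas for miR-203-3p, and skin above kidney for miR-205-5p. These pools left 4 to 15 libraries per other tissue, against 31 to 56 in all, so that a difference of the same size was less likely to pass. For miR-203-3p small intestine exceeded liver by 0.65 with all pools (permutation test, adjusted p = 4.29e-05) and by 0.67 without skin pools (adjusted p = 0.123).

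Within skin the pair varied together. Across the 46 libraries Spearman's rho between them was 0.78. The miRNAs most like miR-203-3p across skin libraries were miR-130a-3p (rho of 0.88), miR-200c-3p (0.85), miR-200b-3p (0.83), miR-141-3p (0.83) and miR-106b-5p (0.82). Those most like miR-205-5p were miR-200b-3p (0.89), miR-145a-5p (0.86), miR-107-3p (0.84), miR-23b-3p (0.83) and miR-193b-5p (0.83). The summed level of the 10 epithelium markers had a rho of 0.91 with miR-203-3p and of 0.82 with miR-205-5p, the white blood cell list 0.76 and 0.63, the striated muscle list 0.40 and 0.33, and the fibroblast list 0.31 and 0.22. All these values share the library they were read from, and the miRNA part of a library ran from 106461 to 482610 rpmm.

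Neither member was called changed with age in skin, by correlation with age or at the ages tested against 3 months. With 1 library of 21 months and 2 of 24 months, these ages were not tested singly, so the study's contrast of 21 with 3 months is missing. The 24-month libraries held 10279 and 7883 rpmm of miR-203-3p and 24038 and 19554 rpmm of miR-205-5p. The 21-month library held 4830 and 20311 rpmm. miR-203-3p held 5233 to 7606 rpmm at 3 months (median 5638, n = 6) and 3707 to 6510 rpmm at 18 months (median 5903, n = 6). miR-205-5p held 16031 to 22956 rpmm at 3 months (median 18083.5) and 14073 to 17848 rpmm at 18 months (median 15857). The groups overlapped for both. At 27 months the 4 libraries, all from males, held 7142, 8165, 9449 and 22058.5 rpmm of miR-203-3p. The same libraries held 22521, 21980, 31507 and 38412 rpmm of miR-205-5p. The difference of 27 from 3 months was 0.83 ± 0.35 on the log2 scale for miR-203-3p (limma, adjusted p = 0.113) and 0.57 ± 0.37 for miR-205-5p (adjusted p = 0.38), and for miR-203-3p it passed under 2 alternatives (0.52 with median-ratio scaling, adjusted p = 0.0483, and 0.97 by edgeR on recovered reads, adjusted p = 0.0401). The miRNA part of these 4 libraries was also high, 306510 to 482610 rpmm against 241968 to 434206 at 3 months, and the library with 22058.5 rpmm was the shallowest of skin, with 6.53 M mapped reads. Their part in the result was not tested. Spearman's rho with age over skin libraries was 0.30 for miR-203-3p (permutation test, adjusted p = 0.192) and 0.17 for miR-205-5p (adjusted p = 0.613).

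**Figure D3:**
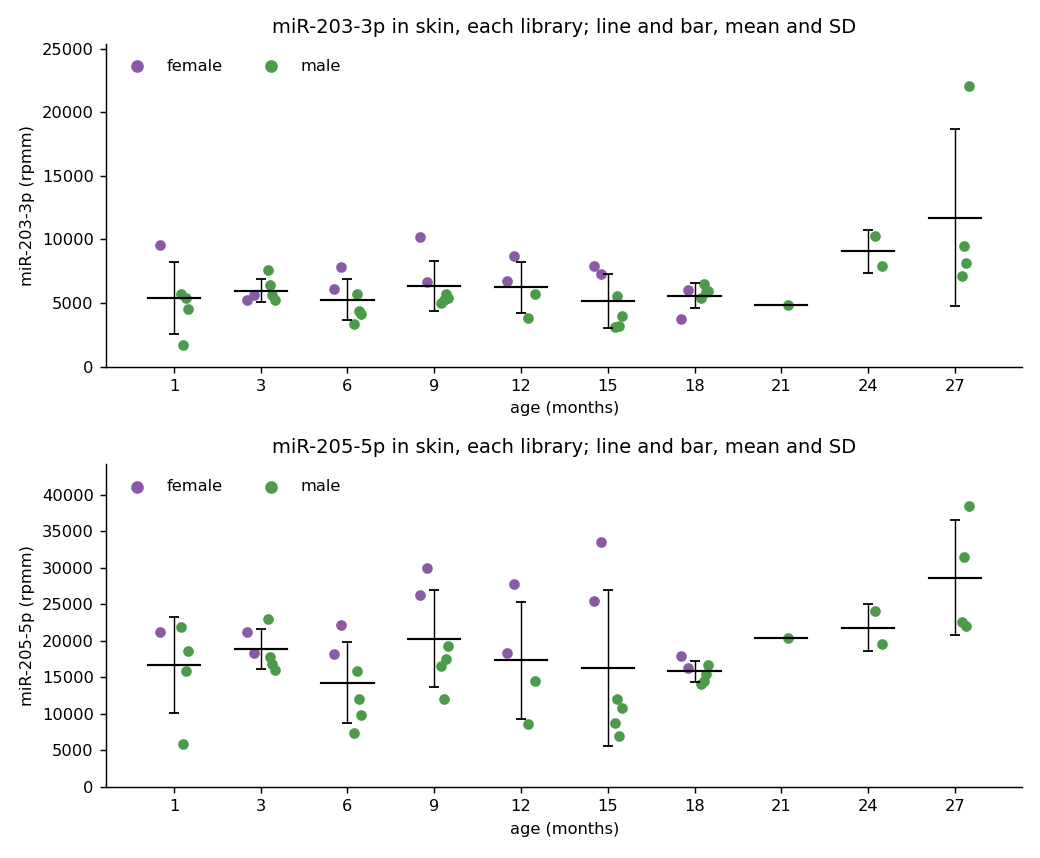
Level of miR-203-3p (top) and miR-205-5p (bottom) in rpmm in each skin library by age in months, females in purple and males in green; the horizontal line is the mean of all libraries of an age and the bar its SD. The 27-month libraries, all male, lie between 7142 and 22058.5 rpmm and between 21980 and 38412 rpmm.

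Over all tissues, a change with age was called from a Spearman's rho above 0.5 or below −0.5. Of all pairs of miRNA and tissue, 3.75% had a rho above 0.5. miR-203-3p had one in 3 of 16 tissues, bone (rho of 0.59, n = 48, permutation test, adjusted p = 0.000888), marrow (0.58, n = 56, adjusted p = 0.000355) and heart (0.55, n = 53, adjusted p = 0.000888), and miR-205-5p in none, with rho between −0.15 and 0.20. By an adjusted permutation p alone, lung (rho of 0.48, adjusted p = 0.00516) and BAT (0.48, adjusted p = 0.0327) joined them for miR-203-3p. In marrow, which makes the blood cells, the median was 29.2 rpmm at 3 months (20.2 to 47.98, n = 6) and 50.9 rpmm at 27 months (34.9 to 62.4, n = 4). In heart it was 37.4 rpmm at 3 months (25.8 to 42.98, n = 5) and 65.1 rpmm at 27 months (48.6 to 70.8, n = 3), without overlap. In bone, 1 library of 21 months held 247 rpmm, and the 27-month values of 30.8 to 72.7 rpmm overlapped those of 3 months, 8.10 to 60.4 rpmm.

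Within plates, as the annotation gives them, these correlations were weaker. After the mean of each plate was removed, rho was 0.55 in marrow, 0.4996 in bone and 0.43 in heart, so that only marrow stayed above the threshold. Without the 24- and 27-month libraries none of these 3 tissues passed (0.47 in marrow, 0.48 in bone, 0.39 in heart). Marker lists moved as well in heart, where the epithelium list had a summed median of 215 rpmm at 3 months and 324 rpmm at 27 months and the white blood cell list 976 and 1409 rpmm. In bone the striated muscle list held 6672 to 23722 rpmm at 3 months (median 13613) and 22146 to 118414 rpmm at 27 months (median 31666), and the epithelium list had medians of 79.7 and 108.5 rpmm. In marrow the epithelium list had medians of 228 and 225 rpmm. Their part in the result was not tested.

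Against 3 months, single ages gave little. A contrast needed at least 3 libraries at both ages, which left out BAT at every age and skin at 21 and 24 months, among others. Of all contrasts of miRNA, tissue and age, 2.77% were called, compared with 1 of 128 for miR-203-3p and 0 of 128 for miR-205-5p (limma). The one called was MAT at 1 month, where the 3 libraries held 3.39, 220 and 232 rpmm against 181 to 256 rpmm in 5 libraries of 3 months, a log2 difference of −1.89 ± 0.59 (adjusted p = 0.0409). It rested on the library with 3.39 rpmm, and by edgeR it did not pass (−0.57, adjusted p = 0.732). In the same limma contrast 54 of the 591 miRNAs tested were called lower and 3 higher.

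Between the sexes, miR-205-5p was called different in 2 of 16 tissues, SCAT and skin, and miR-203-3p in 1, skin. In SCAT libraries of 1 to 21 months, the 11 from females held 732 to 3412 rpmm of miR-205-5p (median 1668) and the 27 from males 1.26 to 1230 rpmm (median 39.2). Only 1 male exceeded the lowest female. With age in the fit, females exceeded males by 4.49 ± 0.55 on the log2 scale, a 22.5-fold difference (limma, adjusted p = 1.27e-08). In SCAT 4.39% of the 592 miRNAs tested were called higher in females, and over all tissues 4.67% were called in either direction. The sex difference in SCAT departed from that of the other tissues by 4.79 ± 0.49 (interaction, adjusted p = 2.97e-19). miR-203-3p in SCAT held 36.5 to 290 rpmm in females (median 216) and 21.1 to 757 rpmm in males (median 252), a difference of −0.63 ± 0.35 (adjusted p = 0.214).

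General epithelium markers moved with miR-205-5p in SCAT. Of the 10 on the list, 9 were called higher in females and none lower, with a median log2 difference of 3.89, the exception being the endocrine and gut miRNA miR-375-3p (0.21 ± 0.31). miR-200c-3p held 267 to 2314 rpmm in females (median 1228) and 4.40 to 424 rpmm in males (median 41.03). The summed level of the list was 1333 to 8695 rpmm in females, and 84.9 to 1137 rpmm in males. No striated muscle, white blood cell or fibroblast marker was called, and of the red blood cell markers 1 of 4 was lower. The part of the epithelium markers in the result was not tested. Only 2 females and 9 males came from pools without skin. These 2 held 1734 and 1845 rpmm, above all 9 males (1.26 to 584 rpmm), and the fitted difference there was 2.25 (adjusted p = 0.000258).

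In skin both members were called higher in females, among 16.4% of the 544 miRNAs tested that were higher in females there. miR-205-5p held 16237 to 33565 rpmm in 13 females (median 21207) and 5794 to 22956 rpmm in 27 males (median 15477). All 13 females lay above the median of the males. The difference was 0.74 ± 0.17 on the log2 scale (1.67-fold, limma, adjusted p = 0.000523), and with the plate in the fit 0.57 ± 0.21 (adjusted p = 0.0433). miR-203-3p held 3707 to 10180 rpmm in females (median 6708) and 1658 to 7606 rpmm in males (median 5380), a difference of 0.49 ± 0.17 (1.401-fold, adjusted p = 0.0219). This call was lost with the plate in the fit (0.28 ± 0.20, adjusted p = 0.37) and with sets of 12 title numbers (0.39 ± 0.19, adjusted p = 0.152). With the skin library of liver profile included, neither passed (adjusted p = 0.303 for miR-205-5p and 0.107 for miR-203-3p). Of the epithelium markers 5 of 10 were higher in females, of the white blood cell markers 2 of 4 were higher, and of the fibroblast markers 2 of 3 were lower. A test of whether the sex difference in skin departed from that of other tissues did not pass for miR-203-3p (0.63 ± 0.27, adjusted p = 0.12) or miR-205-5p (0.63 ± 0.46, adjusted p = 0.511).

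**Figure D4:**
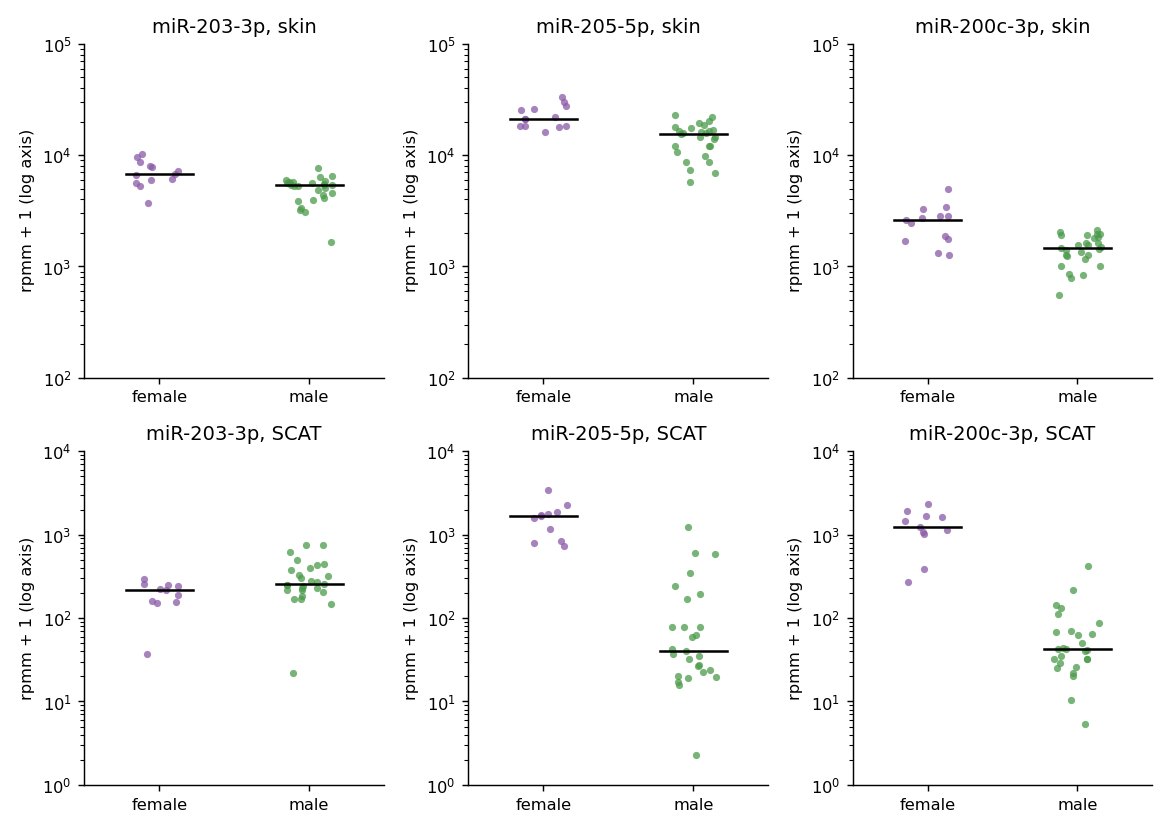
Levels of miR-203-3p, miR-205-5p and the general epithelium marker miR-200c-3p, as rpmm + 1 on a log axis, in skin (top) and SCAT (bottom) of females and males of 1 to 21 months; points are libraries and black lines medians. In SCAT miR-205-5p and miR-200c-3p are high in females, with medians of 1668 and 1228 rpmm against 39.2 and 41.03 rpmm in males, while miR-203-3p overlaps.

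In the parabiosis cohort the pair again differed between tissues. miR-203-3p had its highest median in GAT (361 rpmm), then kidney (298), liver (284), MAT (204.9), heart (42.01) and limb muscle (18.4). miR-205-5p was highest in kidney, with 106 to 272 rpmm in 29 libraries. Against the mean of the other 5 tissues, miR-203-3p was called in 6 of 6 tissues and miR-205-5p in 5 of 6, all but MAT. Over the 6 tissues, 83.9% of all pairs of miRNA and tissue were called.

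Of the 24 contrasts between parabiosis groups, 2 were called for miR-203-3p and none for miR-205-5p, against 4.73% of all contrasts tested. Both lay in heart and compared old with young. Many other miRNAs were called there. Of 516 tested, 57 were called higher and 44 lower in HA than in HY. In IA against IY, 50 were called higher and 46 lower. Ordered from the highest difference downward, miR-203-3p was at position 33 for HA against HY and 66 for IA against IY. miR-203-3p held 28.7 to 41.6 rpmm in IY hearts (median 35.5, n = 8), 28.5 to 42.7 rpmm in HY hearts (median 34.02, n = 7), 48.8 to 58.0 rpmm in HA hearts (median 51.5, n = 7) and 39.1 to 62.0 rpmm in IA hearts (median 45.99, n = 8). HA lay wholly above HY, while IA and IY overlapped. On the log2 scale HA exceeded HY by 0.57 ± 0.11 (limma, adjusted p = 0.00222) and IA exceeded IY by 0.39 ± 0.10 (adjusted p = 0.013). With the partners of each isochronic pair averaged, 4 pairs against 4, IA exceeded IY by 0.39 ± 0.12 (adjusted p = 0.0368). With IY mice of 4.5 months alone this difference no longer passed (0.42, adjusted p = 0.127). Old hosts compared by partner, HA against IA, differed by 0.16 ± 0.11 (adjusted p = 0.325). Among young hosts HY differed from IY by −0.02 ± 0.11 (adjusted p = 0.958). HY and IY differ in strain and slightly in age as well as in partner. HA and HY likewise differ in strain as well as in age, and these cannot be told apart. The summed epithelium list ran from 276 to 423 rpmm in HA hearts and from 175 to 276 rpmm in HY hearts. In IA it ran from 240 to 328 rpmm (median 274) and in IY from 193 to 296 rpmm (median 220), with overlap. Its members did not all move alike: miR-200c-3p held 6.14 to 11.7 rpmm in IA and 8.81 to 12.6 rpmm in IY. The white blood cell list had medians of 1334 rpmm in HA and 971 rpmm in HY. The part of these lists in the result was not tested.

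miR-205-5p in GAT was spread widely within HY, HA and IA. It held 4.72 to 596 rpmm in IY (median 11.8, n = 8), 4.87 to 1616 rpmm in HY (median 30.97, n = 7), 5.61 to 1674 rpmm in HA (median 14.5, n = 7) and 7.73 to 2410 rpmm in IA (median 425, n = 8). The top of the IY range rested on 1 library, and the other 7 held 4.72 to 17.4 rpmm. Above 100 rpmm lay 1 IY, 3 HY, 3 HA and 4 IA libraries. The groups overlapped throughout, and the contrast of IA with IY, 2.88 ± 1.504 on the log2 scale, did not pass (adjusted p = 0.334). The 10 libraries highest in miR-205-5p, from 541 rpmm upward, were also the 10 highest in the epithelium marker miR-200c-3p (1882 rpmm or more, against 1110 rpmm or less in the other libraries). miR-203-3p held 50.997 to 354 rpmm in the 11 libraries above 100 rpmm of miR-205-5p and 287 to 663 rpmm in the other 19, a description on a split chosen after the values were seen. In the GAT of males of the aging cohort, 1 to 21 months old, miR-205-5p stayed between 4.05 and 99.3 rpmm.

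**Figure D5:**
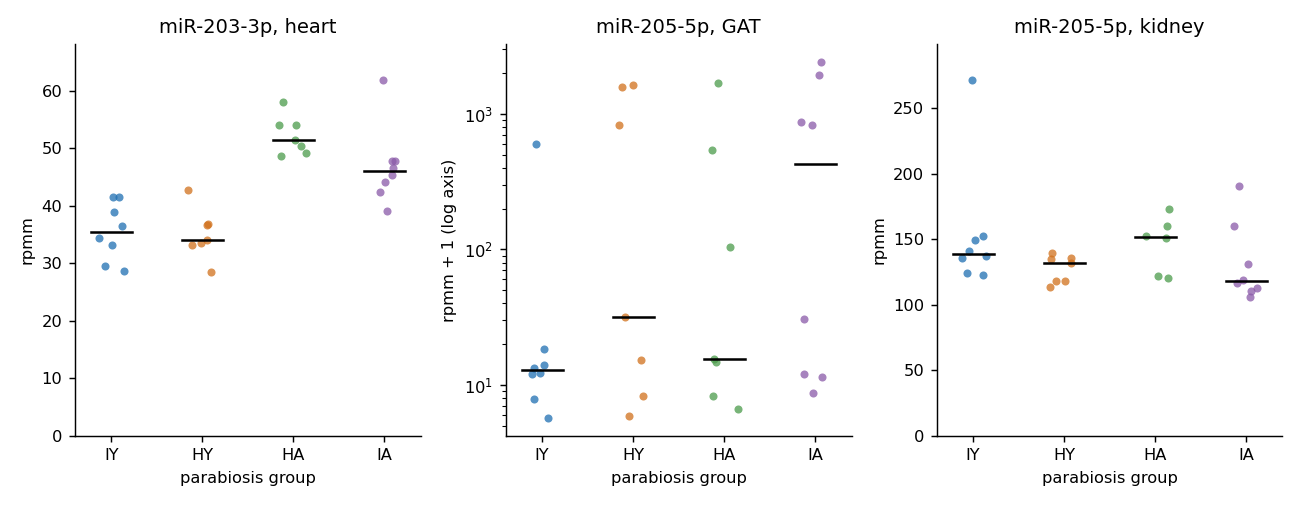
Parabiosis groups (IY, HY, HA and IA): miR-203-3p in heart (left, rpmm), miR-205-5p in GAT (middle, rpmm + 1 on a log axis) and miR-205-5p in kidney (right, rpmm), with each library as a point and medians as black lines. In heart the old groups lie higher, with medians of 51.5 and 45.99 rpmm against 34.02 and 35.5 rpmm; in GAT the groups overlap, with HY, HA and IA spread widely and 1 of 8 IY libraries above 100 rpmm; in kidney the groups overlap.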

How the data were processed

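Small RNA libraries were made with the MGIEasy kit (21 PCR cycles, no molecular identifiers) and sequenced single-end. The authors mapped the reads with Bowtie in miRMaster 2.0 to miRBase 22, with mm10 named in the submitters' processing notes, and deposited filtered tables of this signal as rpmm, reads per 1 M (1000000) mapped reads, with 771 and 176 columns. Of these, 3 columns, whose names conflict with the annotation, were not used. The members, marker lists and tests were chosen with earlier results of these data known, and the comparison of pools was added after their values were seen. Named miRNAs were the members, their partner arms, the marker lists and the 5 most like each member.

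Values were tested as log2(rpmm + 1) with limma 3.58.1 (moderated, with a trend), keeping miRNAs of at least 1 rpmm in 10% of libraries, with p-values adjusted over all miRNAs kept (Benjamini-Hochberg, threshold 0.05). Sex fits held age as a factor. Spearman's rho and neighboring tissues were tested with 100000 shuffles. Low values were whole multiples of 1 read within 0.05 reads for a median of 99.2% of them per library of the aging table and 99.0% of the parabiosis table, and edgeR 4.0.16 was run on the recovered reads as an alternative, without 38 libraries where this failed. Steps were tested on simulated data. Pools were taken from the library code of the deposited annotation, and pairs and mice of the parabiosis cohort from the titles. Depth, recovered from the size of 1 read, was 2.29 to 167 M mapped reads, and without molecular identifiers counts are not independent molecules. Ligation favors some ends, so that levels of different miRNAs compare reads. The strain of the HY mice is not reported here.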

Additional observations from a re-analysis of the deposited data

Results flagged for a closer look

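Among 64 pairs of a miRNA and a group of 4 to 10 libraries checked for a library far from the others, 11 held one (17.2%). The check was run on rpmm without logs, and its cutoffs assume normally distributed values. The rate to be had by chance is therefore not known here. All 11 flagged values were the highest of their group. In skin, miR-203-3p reached 22058.5 rpmm in 27-month replicate 25, against 9449 rpmm in the next library, and 10180.4 rpmm in 9-month replicate 15, against 6684 rpmm in the next. In the parabiosis cohort 8 of the flagged values belonged to miR-205-5p and each was the highest of its group. They were 1674 rpmm in the GAT of HA mouse 1A and 596 rpmm in the GAT of IY mouse 15B. In MAT they were 169 rpmm in IY mouse 10B, 56.3 rpmm in HY mouse 5B and 21.2 rpmm in IA mouse 7B. In heart they were 7.49 rpmm in HY mouse 14B and 2.33 rpmm in IA mouse 6A, and in kidney 272 rpmm in IY mouse 16A. The heart of IA mouse 6A was also far from its group for miR-203-3p, with 61.97 rpmm against 47.8 rpmm in the next heart.

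The sex difference of 1 tissue departed from that of the other tissues, by the interaction term of limma, for each member. For miR-205-5p this was SCAT, with an excess of 4.79 ± 0.49 on the log2 scale in females (adjusted p = 2.97e-19). For miR-203-3p it was limb muscle, with −0.92 ± 0.27 (adjusted p = 0.015), where 13 females held 2.08 to 58.5 rpmm (median 14.6) and 29 males 6.47 to 291 rpmm (median 20.7). Within limb muscle alone the difference of −0.93 ± 0.38 did not pass (adjusted p = 0.122), and the interaction was lost with a pseudocount of 10 rpmm (−0.60, adjusted p = 0.109) and from 3 to 21 months (−0.74, adjusted p = 0.0898).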

How the results depend on the processing

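Skin stood above the other tissues for both members under every alternative run. Counts moved by more than 1.5 times as follows, with the cause not tested. Tissues in which miR-203-3p was correlated with age, 3 of 16, became 6 with miRNA-read scaling, 7 with median-ratio scaling, 1 with plate means removed, 5 with means of sets of 12 title numbers removed, 5 in males only, 1 without the 24- and 27-month libraries, 5 by an adjusted permutation p, and 5 of 14 in pools without a skin library. For miR-205-5p, 0 became 2 of 13 in such pools. Ages at which miR-203-3p differed from 3 months, 1 of 128, became 0 with a pseudocount of 10 rpmm, 7 with either scaling, 0 with no filter, 3 by edgeR, 2 with the plate and 4 with the sets of 12 as covariate, and 0 to 4 when each library was left out in turn. The MAT call was lost without 3-month replicate 01, 05, 12 or 17 (highest adjusted p = 0.0854), and the count of 4 came without kidney 3-month replicate 23. For miR-205-5p, 0 became 1 in males only, 1 with the skin level of the pool as covariate, and 0 to 1 on leaving out libraries (kidney 1-month replicate 09). Tissues with a sex difference in miR-203-3p, 1, became 2 with median-ratio scaling, 2 without the libraries closest to another tissue, and 0 with the liver-like skin library, the plate or the sets of 12. For miR-205-5p, 2 became 1 with the liver-like skin library. Parabiosis contrasts of miR-203-3p, 2 of 24, became 5 with median-ratio scaling and 1 with IY mice of 4.5 months only. The 9 neighboring tissues that differed became 3 in pools without a skin library, which left 4 to 15 libraries per other tissue. No called value changed direction under the alternatives run.

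Of the single values, 190 stayed as in the main fit, called or not called, while 25 lost a call and 5 gained one. The skin interaction of sex for miR-203-3p passed with the liver-like library (0.77, adjusted p = 0.04) and with other tissues from pools without skin (0.83, adjusted p = 0.0378). With pair number as replicate block, HA exceeded HY in heart by 0.57 (adjusted p = 0.0151) and the counts stayed at 2 and 0, and with the mouse as block 11 of 12 parabiosis tissue contrasts were called, as without it. The pair number marks mice that were joined, and the deviations of heterochronic partners were correlated above 0.1 in 25 of 39 comparisons (median of 0.24). With the partners of each isochronic pair averaged, the contrasts called for miR-203-3p were 3, the one gained being IA against IY in MAT (−1.206, adjusted p = 0.0321, against −1.21 and 0.121 without averaging). The alternatives on pools and on isochronic pairs were chosen after seeing the data. edgeR was not run on correlations, and single ages were not tested within pools without skin, and were left out. At low depth 1 read bounds the lowest values, such as miR-205-5p at 0 rpmm in 1 spleen library.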

Other observations

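The partner arm miR-205-3p did not follow miR-205-5p between pools. Its difference between pools with and without a skin library was 0.00 ± 0.02 on the log2(rpmm + 1) scale (limma, adjusted p = 0.994), at median levels of 0 to 0.101 rpmm outside skin, where a change of the size seen for miR-205-5p could not be detected. In SCAT miR-205-3p was higher in females by 1.41 ± 0.17 (adjusted p = 1.27e-08), and miR-203-5p was not called (−0.28 ± 0.27, adjusted p = 0.449). In limb muscle of the aging cohort the highest library held 956 rpmm of miR-205-5p. The median over all limb muscle libraries was 21.6 rpmm.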
